A study of Solanum tuberosum with 8 samples.

Results

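The genes described here are the 100 genes of the potato tuber that stood highest in X2 tubers over D6 tubers at 4, 12 and 24 h after cutting. They were chosen by their FPKM values, which are reads on a gene scaled by the gene's length and by the reads on all genes of the library. For each potato and hour the mean FPKM over libraries was taken as log2(FPKM + 0.1), and genes were ranked by the lowest of the 3 X2 minus D6 differences at 4, 12 and 24 h. A gene needed a mean FPKM of at least 5 over these hours in X2. Left aside were 1346 genes, none of which could be a member. They were the study's browning and antioxidant genes, its transcription factors, the pathway genes of its strongest changes, and a further pair. Genes of the study's other tables stayed in. The rule left 11018 genes of the 42667 in the deposited table, and the first 100 of them are the members. The X2 and D6 values at 4, 12 and 24 h therefore chose the genes and are given as a description, without a test. The libraries of 0 h were not used in the choice.

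The study sequenced RNA of tubers of the tetraploid cultivar Xingjia 2 (X2) and of a second potato that the labels name only as D6, at the cut (0 h) and 4, 12 and 24 h later. Tubers of X2 were cut across, kept in trays in humid air, and sampled from the skin to the pith, and each biological replicate mixed 3 tubers. How D6 tubers were grown and pooled is not given in the sources used here. The 21 libraries used comprised 11 of X2, namely 2 at 24 h and 3 at each earlier hour, and 10 of D6, namely 1 at 0 h and 3 at each later hour. Reads on genes, recovered from the FPKM values, came to 29746314 at the least and 44921591 at the most in a library of X2, and to 24226307 and 35649617 in one of D6.

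The tuber is a swollen stem that stores starch and protein. Cutting opens cells, mixes phenolic compounds with the enzymes that oxidise them to brown pigments, and sets off a wound response in which the cut surface is sealed with suberin over hours to days. Transcripts that differ between potatoes at every hour after the cut can be ones that change with time in both, in a single potato or in neither. Change from 0 h was tested in X2 only, where some members were called and others were not. D6 has no replicate at 0 h, and no uncut tubers were sampled at the later hours. In bulk tissue, fewer cells of a type and less RNA per cell cannot be told apart.

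Across the members the X2 mean FPKM over 4, 12 and 24 h ran from 5.01 to 731, with a median of 12.6. In 69 members it was under 20, in 25 it was 20 to 100, and in 6 it was 100 or more. The lowest of the 3 differences ran from 1.62 to 6.27 log2 units, with a median of 2.39. It lay at 4 h in 30 members, at 12 h in 27 and at 24 h in 43. The median X2 minus D6 difference of the members was 2.99 after 4 h, 2.90 after 12 h and 2.70 after 24 h, on the log2(FPKM + 0.1) scale. Over all 11018 genes that could have been chosen, the medians were 0.20, 0.13 and 0.06. The 3 differences of a member spanned more than 1 log2 unit in 37 members and more than 2 in 13. At 4 h every X2 library lay above every D6 library in all 100 members, against 46.9% of the genes that could have been chosen. The same held at 12 h for 100 members, against 37.9%, and at 24 h for 96 members, against 32.6%. The rule fixed most of this, and nothing is read from it.

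**Figure D1:**
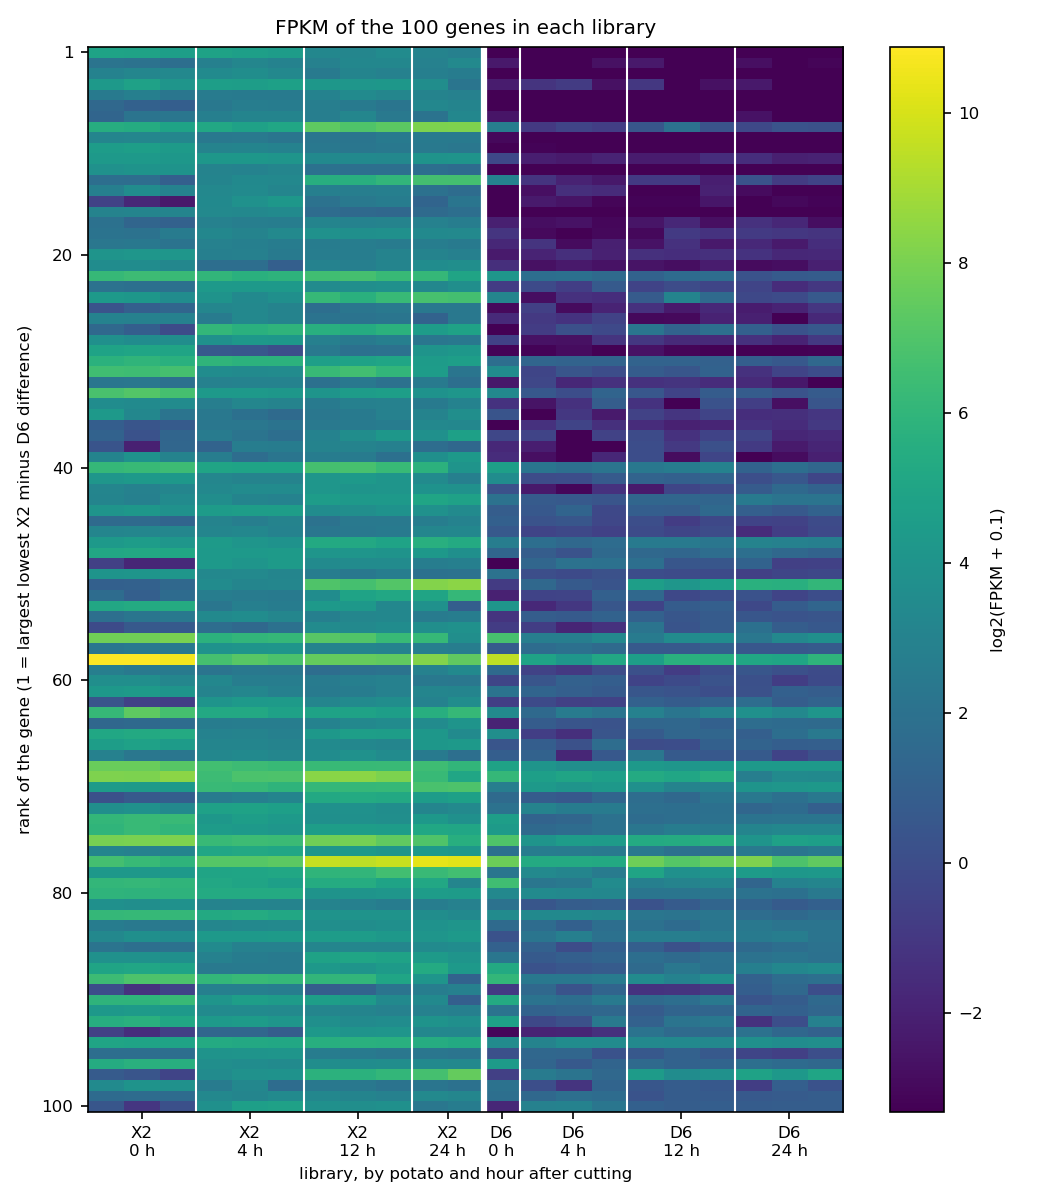
Rows are the 100 genes in the order of their rank and columns are the 21 libraries, X2 on the left and D6 on the right. Colour gives log2(FPKM + 0.1), and the darkest cells at the upper right are the D6 libraries listed at 0, among them those of the 6 genes without a read in D6.

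Gene descriptions could be had for few of the genes. The study's tables describe 712 genes (1.67% of the table), of which 2 are members, and 14 members have a Gene Ontology term there. With 2 descriptions, a search for functional groups by keyword could find next to nothing, and nothing is read from it. The terms of the 14 include O-methyltransferase activity for PGSC0003DMG400000851, oxidation-reduction for PGSC0003DMG400014273, and movement of substances across membranes for PGSC0003DMG400003906 and PGSC0003DMG400031248. The last 2 genes also carry many unlike terms, so the terms named do not settle what they encode. Neither description matched a marker sought for storage parenchyma, green tissue or suberin, and the tissue named by the labels could not be checked through these genes. The other members are given by the identifier in the files.

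A first set of members was at or near 0 in D6. Of the 100 members, 6 had no read in any of the 10 D6 libraries, and 9 had 3 reads or fewer in each. The D6 mean FPKM was under 0.5 at each of 4, 12 and 24 h in 25 members and 0.5 or more at each of them in 63. In 24 members D6 reached a mean of 5 or more at some hour from 4 h on.

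The gene of rank 1, PGSC0003DMG400042108, had 30.5, 29.0 and 25.2 FPKM at 0 h in X2. It had 28.5, 25.6 and 22.9 FPKM at 4 h, then 9.48, 9.16 and 11.4 by 12 h, and 8.02 and 7.19 by 24 h in X2. In D6 it was at 0 in all 10 libraries. Against the FPKM that 3 reads per D6 library would give, X2 was at least 323-fold higher at 0 h, at least 263-fold at 4 h, at least 125-fold at 12 h and at least 97.9-fold at 24 h. All X2 libraries lay far above D6. The X2 libraries of 0 and 4 h overlapped, and those of 12 and 24 h lay below them.

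PGSC0003DMG401024222 (rank 12) was likewise at 0 in every D6 library. Its X2 values were 14.5, 15.7 and 15.4 FPKM at 0 h, then 7.96, 7.79 and 8.73 at 4 h, 3.80, 3.55 and 3.57 by 12 h, and 3.45 and 3.03 by 24 h. X2 was at least 395-fold higher at 0 h and at least 94.8-fold higher at 24 h. The replicates of each hour lay close together, and every later hour lay below the one before it.

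The other 4 genes without a D6 read were predicted by the study from its own reads. Novel02671 (chromosome 6, 33703727 to 33708827, plus strand, SolTub_3.0) had 5.78 to 12.3 FPKM across the 11 X2 libraries, and X2 was at least 65.2-fold higher at its lowest hour, 24 h. Novel02871 (chromosome 6, 59457733 to 59458601, minus strand) had 4.65 to 10.9 FPKM in X2, at least 34.1-fold higher at its lowest hour, 4 h. Novel01367 (chromosome 12, 45154064 to 45156897, minus strand) had 8.14 to 10.9 FPKM at 0 and 4 h and 2.58 to 3.35 FPKM at 12 and 24 h in X2. In these 3 genes the X2 levels at 0 h were close to those at 4 h. Novel02249 (chromosome 4, 5368361 to 5368651, minus strand) had 2.66, 2.05 and 1.76 FPKM at 0 h in X2, and 5.07 to 6.28 at 4 h, 4.53 to 6.58 at 12 h, and 9.58 and 8.42 at 24 h. It was at least 29.1-fold higher in X2 at 24 h and at least 6.20-fold at 0 h.

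Other genes of the first 12 ranks had a few reads in D6. PGSC0003DMG400002855 had 4.53 to 8.99 FPKM in the X2 libraries and 1 read over all 10 D6 libraries, at 0 h. PGSC0003DMG400033662 had 20.9 to 25.2 FPKM at 0 h and 4.70 to 8.33 FPKM from 4 h on in X2, and also 1 read over all D6 libraries. PGSC0003DMG401022140 had 3.39 to 4.28 FPKM at 0 h and 7.14 to 10.4 FPKM from 4 h on in X2, and 18 reads over all D6 libraries. Novel03071 had 2.40 to 9.30 FPKM in X2 and 2 reads over all D6 libraries. In these 4 genes the D6 libraries hardly rose above the limit of detection at any hour.

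PGSC0003DMG400008794 (rank 8) differed from its neighbours in rank in that both potatoes expressed it. In X2 it had 46.8, 42.2 and 30.4 FPKM at 0 h, then 36.3, 28.3 and 33.2 at 4 h, 162, 126 and 159 by 12 h, and 273 and 278 by 24 h. In D6 it had 6.69 FPKM in the library of 0 h, then 0.405, 0.639 and 0.527 at 4 h, 1.28, 3.88 and 1.12 by 12 h, and 0.743, 1.14 and 1.04 by 24 h. The X2 minus D6 difference was 5.71 log2 units after 4 h, 6.09 after 12 h and 8.0 after 24 h. X2 and D6 libraries did not overlap at any hour.

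**Figure D2:**
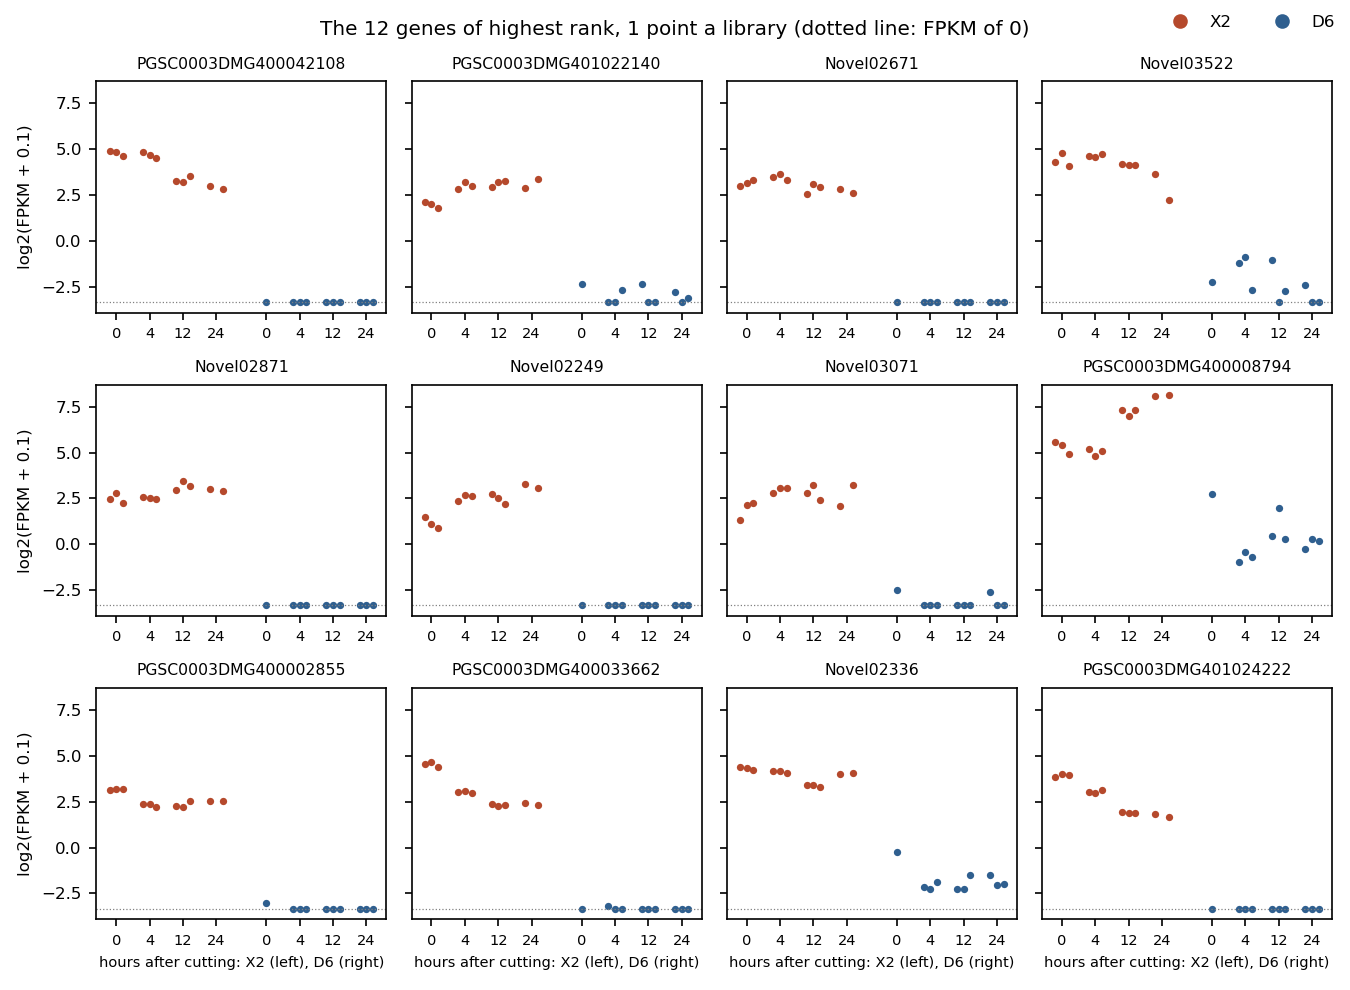
Each panel shows 1 of the 12 genes of highest rank as log2(FPKM + 0.1) against hours after cutting, X2 on the left and D6 on the right of the panel, with 1 point a library. The dotted line marks 0 FPKM. D6 points reach 6.69 FPKM for PGSC0003DMG400008794, 0.754 for Novel02336 and 0.450 for Novel03522, and stay below 0.1 FPKM for the other 9 genes.

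At the other end of the list the difference was smaller and both potatoes expressed the genes. PGSC0003DMG400014755 (rank 99) had a lowest difference of 1.63 and PGSC0003DMG400021216 (rank 100, annotated with flavin adenine dinucleotide binding) one of 1.62. Just outside were PGSC0003DMG400016875 with 1.61 and PGSC0003DMG400001862 with 1.60. PGSC0003DMG400021216 had 13.9, 25.6 and 27.4 FPKM at 4 h in X2, against 7.38, 7.85 and 4.75 FPKM in D6. At 24 h it had 4.81 and 6.06 FPKM in X2, against 1.65, 1.74 and 1.70 FPKM in D6.

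The libraries of 0 h, taken at the cut, bear on whether the members already differed before a wound response had time to develop. For the 0 h calls the spread came from all groups of potato and hour. These include the hours that the rule used, where D6 values of 0 add no spread. D6 has 1 library at 0 h, so the calls have no D6 replicate at that hour and assume that D6 varied there like the other groups. On that assumption, at 0 h 75 of the 100 members were higher in X2 and 2 were lower (limma over all 21 libraries, |log2FC| of at least 1 and unadjusted p of at most 0.01). Over all 20353 genes tested, 5.95% were higher and 12.0% lower in X2, and of the 11018 genes that could have been chosen 4.96% were higher. With an adjusted p of at most 0.05 (Benjamini-Hochberg over all genes tested) the counts were 75 and 3. The median X2 minus D6 log2FC of the members was 2.16, against -0.07 over all genes tested. Each of the 3 X2 libraries lay above the D6 library in 92 members, against 41.8% of the genes that could have been chosen.

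The difference at 0 h was 3 log2 units or more in 39 members, 1 to 3 in 43 and under 1 in 18. In 60 members it was smaller than each of the differences at 4, 12 and 24 h, and in 21 it was larger than each of them. Since the rule took genes with large differences at the later hours, smaller ones at 0 h follow in part from the choice.

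The 3 largest fitted differences at 0 h follow. PGSC0003DMG400001915 had 30.4, 32.5 and 31.7 FPKM in X2, against 0.0083 FPKM in D6. Its fitted log2FC was 8.19. PGSC0003DMG400042108 had a fitted log2FC of 8.14 and PGSC0003DMG400033662 one of 7.86. In D6 these genes had at most 1 read at 0 h, so the fitted values and their order depend on the pseudocount and are no bounds. Their D6 values at the later hours, which the rule used, entered the spread of the fit and lay at or near 0. No standard error or p-value is therefore given for these 3 genes. In all 3 genes the X2 and D6 libraries lay far apart at 0 h.

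A few members ran the other way at 0 h. In 6 members the D6 library of 0 h lay above the X2 mean. Novel01397 had 98.9, 74.9 and 61.4 FPKM at 0 h in X2, against 208 FPKM in D6, a log2FC of -1.44 ± 0.32 (SE, adjusted p = 0.00214). PGSC0003DMG400000851, annotated with O-methyltransferase activity, had 1.03, 1.46 and 1.80 FPKM in X2, against 2.89 FPKM in D6 (log2FC -1.0 ± 0.32, adjusted p = 0.0209), and this call was lost with a pseudocount of 1, with size factors, with recovered reads, in a fit of the 0 h libraries alone and without X2 replicate 1. Novel01399 had 3.38, 3.30 and 1.90 FPKM in X2, against 7.83 FPKM in D6, and its log2FC of -1.47 ± 0.51 had an unadjusted p of 0.0103 and missed the threshold. PGSC0003DMG400011977 had 62.6 to 70.4 FPKM in X2, against 93.3 FPKM in D6, and its log2FC of -0.49 ± 0.67 was not called. For these genes "higher in X2 at every hour" holds from 4 h on and not at 0 h.

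**Figure D3:**
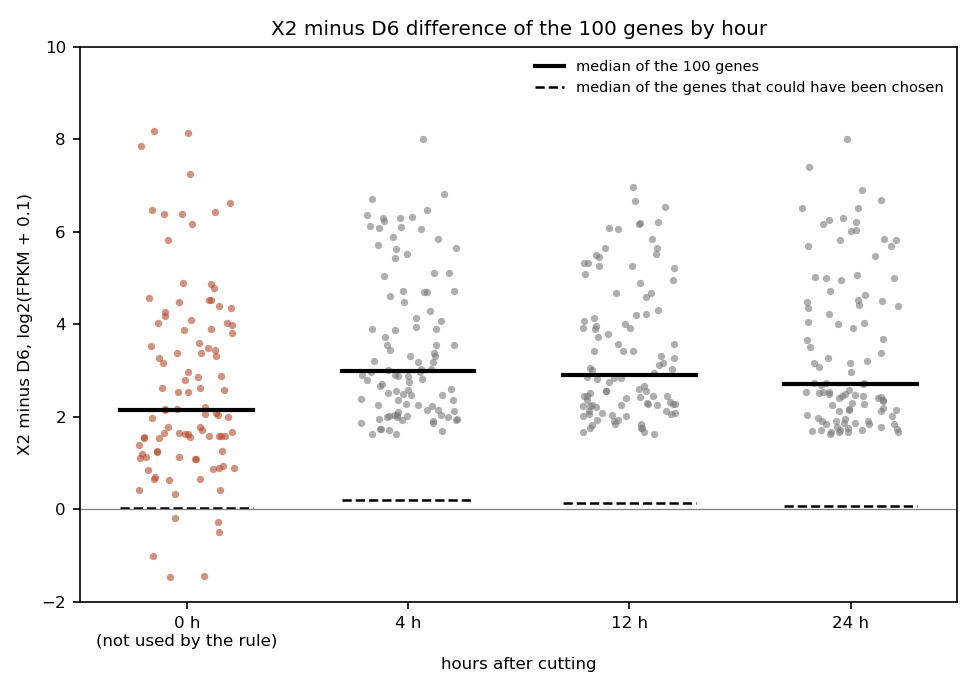
Each point is the X2 minus D6 difference of 1 of the 100 genes on the log2(FPKM + 0.1) scale, by hour after cutting; solid bars are medians of the 100 genes and dashed bars medians of the genes that could have been chosen. At 0 h, which the rule did not use, the points reach below 0 and their median is 2.16, and at the later hours all points lie at 1.62 or above, as the rule requires.

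Within X2 the members did not share a course after cutting. Of the 100 members, 42 rose at 1 or more of the 3 later hours against 0 h and fell at none, 40 fell at 1 or more and rose at none, 1 did both, and 17 were called at no hour. Of the 18339 genes tested at all 3 hours, the shares were 43.9%, 24.7%, 0.742% and 30.7%. At 4 h, 31 members were higher than at 0 h (35.4% of all genes tested) and 28 lower (15.8%). At 12 h, 36 were higher (36.6%) and 26 lower (17.5%). At 24 h, 34 were higher (33.5%) and 31 lower (17.0%). The rule's minimum on the X2 mean at 4 to 24 h leans to genes that are high after 0 h.

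The scale of the FPKM values bears on these counts. Over all genes tested the median log2FC against 0 h in X2 was 0.47 for 4 h, 0.47 for 12 h and 0.37 for 24 h, and that of the members was 0.05, 0.02 and 0.03. With median-of-ratios size factors the all-gene medians were -0.07, -0.04 and -0.03. On that scale 19 members were higher and 40 lower at 4 h. The counts were 23 higher and 41 lower at 12 h, and 27 higher with 40 lower at 24 h. Over the 3 hours 33 members then rose and fell at none, and 50 fell and rose at none, against 31.8% and 35.8% of the genes tested.

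A group of 25 members rose at each of 4, 12 and 24 h (20.9% of all genes tested), and with size factors 13 did (12.7%). The median X2 FPKM of the 25 was 1.86 at 0 h, then 8.98 at 4 h, 11.4 by 12 h and 11.0 by 24 h. In D6 the medians of the same genes were 0.440, 0.962, 1.56 and 1.60 FPKM. Of the 25, 10 had their highest X2 mean at 4 h, 3 at 12 h and 12 at 24 h.

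Both described members belong to this group. Descriptions of members could come only from the study's list of its most strongly changed genes in X2, most of them up. That the described members rose therefore follows in large part from this source. PGSC0003DMG401001494 is described as TSI-1 protein, a stress-induced protein known from tomato. In X2 it had 1.98, 2.0 and 2.71 FPKM at 0 h, then 11.6, 8.72 and 8.99 at 4 h, 126, 103 and 137 by 12 h, and 308 and 339 by 24 h. In D6 it had 0.454 FPKM at 0 h, then 2.69, 1.55 and 1.18 at 4 h, 24.6, 17.2 and 25.4 by 12 h, and 52.1, 48.9 and 66.5 by 24 h. Each hour lay above the one before it in both potatoes, without overlap of libraries. The X2 log2FC at 24 h against 0 h was 7.13 ± 0.16 (SE, limma adjusted p = 1.52e-05), the largest positive one among the members. Between 4 and 12 h the gene rose by 3.63 ± 0.14 log2 units in X2 (adjusted p = 8.68e-07), and by 3.62 ± 0.30 in D6 (adjusted p = 7.81e-05). Its X2 minus D6 difference was 2.37 after 4 h, 2.44 after 12 h and 2.53 after 24 h, and in the 0 h libraries it was 2.06 ± 0.33 (adjusted p = 0.000123).

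PGSC0003DMG400030006 is described as PAR-1b protein. PAR-1 proteins of tobacco are known to be induced when sugars accumulate in leaves. The X2 values were 1.57, 1.24 and 0.649 FPKM at 0 h, then 11.2, 14.7 and 15.2 at 4 h, 55.4, 53.5 and 67.9 by 12 h, and a mean of 144 ± 58.99 (SD, n = 2) by 24 h. The D6 values were 0.555 FPKM at 0 h, then 6.01, 4.36 and 2.68 at 4 h, 22.3, 11.8 and 14.7 by 12 h, and 29.1, 18.6 and 32.2 by 24 h. The gene rose in X2 by 6.86 ± 0.40 log2 units at 24 h against 0 h (adjusted p = 3.11e-05). At 0 h its X2 minus D6 log2FC of 0.86 ± 0.47 was not called (adjusted p = 0.169). The D6 means followed the same order of hours at lower levels, and the D6 libraries of 12 and 24 h overlapped.

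PGSC0003DMG400000851 (O-methyltransferase activity) had 37.5, 40.2 and 38.1 FPKM at 12 h in X2, against 3.22, 2.69 and 4.57 FPKM in D6. Its X2 level at 12 h was 4.70 ± 0.18 log2 units above 0 h (adjusted p = 5.67e-07). PGSC0003DMG400025628, annotated with cadmium ion binding, had 0.534, 0.269 and 0.540 FPKM at 0 h, then 2.49, 2.52 and 1.73 at 4 h, 18.7, 16.3 and 16.9 by 12 h, and 9.40 and 9.39 by 24 h in X2. It rose at 12 h against 0 h by 5.03 ± 0.23 log2 units (adjusted p = 9.69e-07). In D6 it rose between 4 and 12 h by 3.44 ± 0.28 log2 units (adjusted p = 7.81e-05), to 4.08, 2.85 and 2.93 FPKM at 12 h. Both genes stood highest at 12 h in X2.

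Other risers were highest at 4 h. Novel01359 had 20.6, 17.2 and 21.6 FPKM at 4 h in X2, against 0.540, 0.192 and 0.229 FPKM at 0 h, a log2FC of 5.65 ± 0.29 (adjusted p = 1.35e-06). PGSC0003DMG400030470, annotated to the chromosome, had 10.7, 14.6 and 18.0 FPKM at 4 h, against 0.588, 0.195 and 0.0955 FPKM at 0 h (log2FC 5.38 ± 0.44, adjusted p = 1.36e-05), and no D6 library passed 0.11 FPKM. Novel02273 had 67.4, 51.1 and 59.6 FPKM at 4 h, against 2.65, 1.82 and 0.833 FPKM at 0 h (log2FC 5.12 ± 0.35, adjusted p = 5.37e-06). PGSC0003DMG400019087, annotated with DNA repair, had 14.9, 16.5 and 16.7 FPKM at 4 h and 4.70, 5.27 and 5.06 FPKM at 0 h in X2. The D6 libraries had 3.11, 3.76 and 2.93 FPKM at 4 h and 1.61 FPKM at 0 h. Its X2 log2FC at 4 h against 0 h was 1.66 ± 0.09 (adjusted p = 1.53e-06). The X2 mean of all 4 genes was lower at 12 h than at 4 h.

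**Figure D4:**
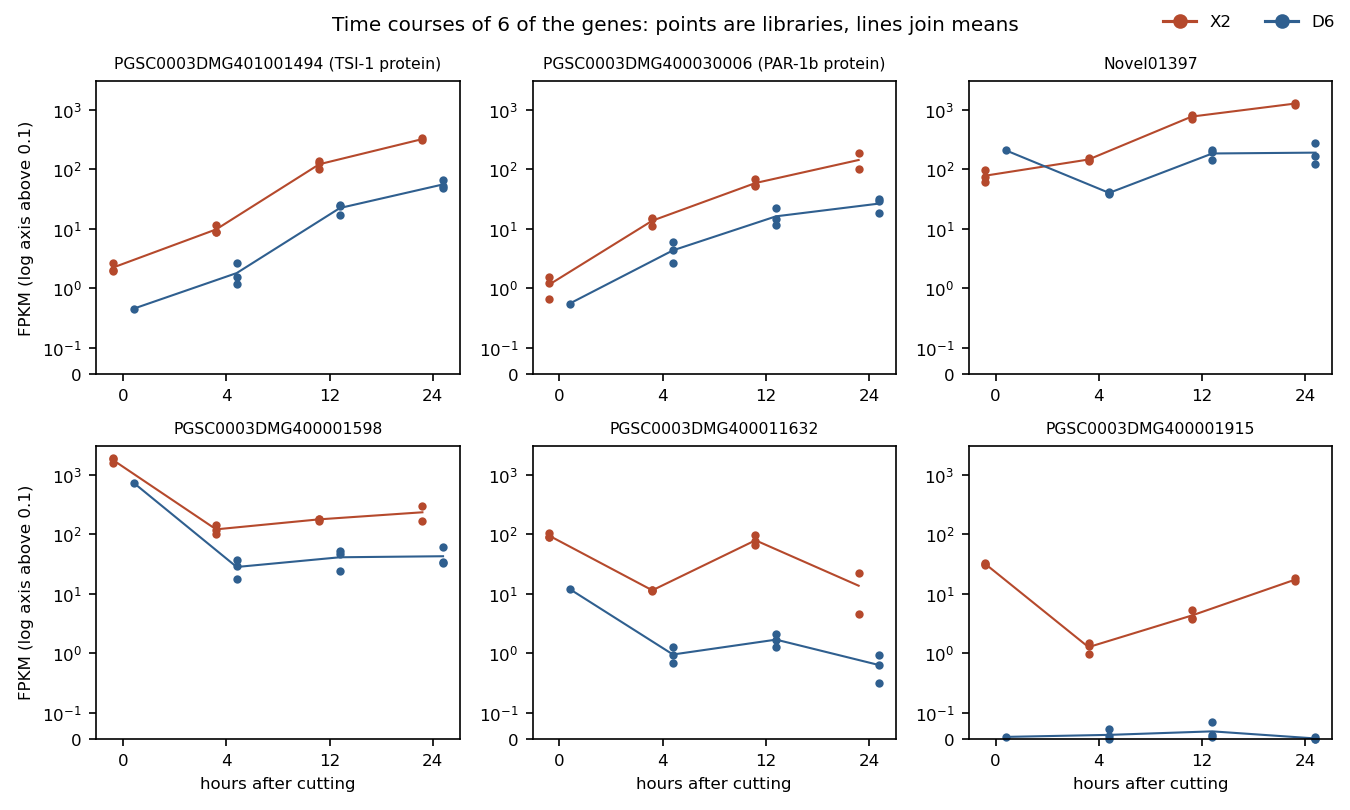
FPKM of 6 of the genes (log axis above 0.1, linear below) against hours after cutting, with X2 libraries as the red and D6 libraries as the blue points and lines through the means. TSI-1 and PAR-1b proteins had higher means at each later hour in both potatoes with X2 above D6 throughout, Novel01397 was higher in D6 at 0 h and higher in X2 from 4 h on, and the 3 genes of the lower row fell in X2 at 4 h.

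Another group, of 13 members, fell at each of 4, 12 and 24 h in X2 (10.2% of all genes tested). With size factors 28 fell at each of them (17.5%), more than the 13 that rose. The 13 that fell without size factors had a median X2 FPKM of 47.4 at 0 h, then 19.1 at 4 h, 13.4 by 12 h and 10.05 by 24 h. In D6 the medians of the same 13 genes were 21.7, 2.05, 2.42 and 1.89 FPKM, and 11 of them had their highest D6 mean at 0 h. PGSC0003DMG400001598 had the highest FPKM of all members at 0 h, with 1839, 1883 and 1588 FPKM in X2, against 732 FPKM in D6 (log2FC 1.27 ± 0.44, adjusted p = 0.0303). At 4 h it had 101.3, 144 and 117 FPKM in X2, against 29.7, 17.5 and 37.1 FPKM in D6. In X2 it fell by 3.88 log2 units at 4 h against 0 h (SE 0.14, adjusted p = 3.96e-07), and at 24 h it was still 2.98 log2 units below 0 h (SE 0.27, adjusted p = 0.00014). PGSC0003DMG400029338 had 19.8, 19.6 and 18.1 FPKM at 4 h in X2, against 113, 136 and 105 FPKM at 0 h, and its D6 level was 9.65 FPKM at 0 h and 0.633 to 2.30 FPKM later. Both potatoes had less of these transcripts from 4 h on than at 0 h.

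Some members were lowest at 4 h and higher again later. PGSC0003DMG400001915 had 1.48, 1.34 and 0.972 FPKM at 4 h in X2, 4.56 log2 units below 0 h (SE 0.15, adjusted p = 3.2e-07). At 12 h it had 5.31, 3.68 and 3.88 FPKM and at 24 h 16.2 and 18.2 FPKM, and it rose in both steps, by 1.69 ± 0.20 and 1.99 ± 0.17 log2 units (adjusted p = 0.000164 and 0.000443). Its 24 h libraries lay below all 3 of 0 h, with a log2FC of -0.88 ± 0.09 (adjusted p = 0.000247). In D6 no library passed 0.064 FPKM. PGSC0003DMG400003906 is annotated to unlike terms, among them the catalytic core of the proton-transporting ATP synthase and hydro-lyase activity. It had 12.0, 11.7 and 9.45 FPKM at 0 h in X2, then 3.46, 3.41 and 1.86 at 4 h, 7.86, 6.90 and 8.35 by 12 h, and 11.7 and 12.8 by 24 h. It fell by 1.94 ± 0.24 log2 units at 4 h against 0 h (adjusted p = 0.000137) and rose by 1.42 ± 0.23 from 4 to 12 h (adjusted p = 0.000767). Its D6 values were 0.276 FPKM at 0 h and 0.0319 to 0.136 FPKM later. In both genes every X2 library lay above every D6 library.

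Between neighbouring hours after the cut, fewer members moved. From 4 to 12 h in X2, 25 rose (13.0% of all genes tested) and 11 fell (10.2%). From 12 to 24 h in X2, 7 rose (7.41%) and 8 fell (4.73%). The 8 became 17 without replicate 1 of 24 h and 5 without replicate 2 of 12 h. The X2 values of these hours entered the choice of the members, so these counts are a description. The same holds for the standard error and p-value of every single gene between 4, 12 and 24 h. Novel01397 had 143, 140 and 156 FPKM at 4 h in X2, then 794, 702 and 818 FPKM by 12 h and 1322 and 1229 FPKM by 24 h. It rose from 4 to 12 h by 2.39 ± 0.08 log2 units (adjusted p = 5.26e-07) and had the highest X2 mean over 4, 12 and 24 h of all members. In D6 it had 40.9, 40.5 and 39.3 FPKM at 4 h, then 214, 142 and 199 by 12 h, and 281, 121 and 171 by 24 h, and rose from 4 to 12 h by 2.18 ± 0.15 (adjusted p = 4.79e-05). From 4 h on every D6 library lay below every X2 library of the same hour.

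In D6, 31 members did not reach the mean of 0.5 FPKM needed for a test of 12 against 4 h, and 28 did not for 24 against 12 h. From 4 to 12 h, 13 of the 69 members tested rose (15.0% of all genes tested) and 5 fell (12.5%). From 12 to 24 h, 5 of the 72 tested rose (6.53%) and 7 fell (4.04%). With the replicate number as a block, 11 fell. Without replicate 3 of 24 h the 5 became 3, and without replicate 3 of 12 h the 7 became 4. The D6 values of these hours entered the choice of the members, which favours genes low in D6 at each of them. These D6 counts, and the standard errors and p-values of single genes between these hours, are therefore a description. The genes named next were also picked for large D6 changes. PGSC0003DMG400016068 had 71.7, 52.3 and 76.9 FPKM at 12 h in X2, against 15.6, 10.6 and 13.1 FPKM at 4 h. In D6 it had 1.62, 8.44 and 2.94 FPKM at 12 h, against 0.0461, 0.300 and 0.262 FPKM at 4 h, a rise of 3.68 ± 0.64 log2 units (adjusted p = 0.00193) whose call was lost with recovered reads. PGSC0003DMG400026323 is annotated to unlike terms, among them mitochondrial respiratory chain and lipid glycosylation. In X2 it had 7.01, 6.85 and 6.5 FPKM at 4 h, then 1.70, 2.20 and 4.36 by 12 h, and 6.31 and 7.04 by 24 h. It fell in D6 by 2.07 log2 units from 4 to 12 h (SE 0.36, adjusted p = 0.00198), to 0.323, 0.339 and 0.493 FPKM, against 2.69, 1.14 and 2.25 FPKM. From 12 to 24 h it rose in D6 by 1.87 ± 0.39 (adjusted p = 0.0082), to 1.78, 2.68 and 0.923 FPKM, a call lost with a pseudocount of 1. The mean was lowest at 12 h among the hours after 0 h in both potatoes.

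Many members stood far below their 0 h level in D6 by 4 h. Of the 57 members with at least 1 FPKM in the D6 library of 0 h, 6 (10.5%) had an X2 mean at 4 h below 0.25 times the X2 mean of 0 h, and 26 (45.6%), these 6 among them, had a D6 mean at 4 h below 0.25 times the D6 level of 0 h. Of the 10556 genes of that level that could have been chosen, the shares were 3.20% in X2 and 5.57% in D6. The rule favours genes low in D6 at 4 h, and D6 has 1 library at 0 h, so these shares are a description without a test. PGSC0003DMG400014234 had 67.9, 76.6 and 69.0 FPKM at 4 h and 85.2, 120 and 116 FPKM at 0 h in X2. In D6 it had 5.09, 4.95 and 5.89 FPKM at 4 h and 66.9 FPKM at 0 h. The D6 value lay below every X2 library at both hours, and by a wider margin at 4 h.

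The 2 X2 libraries of 24 h disagreed in a group of members. In 12 members replicate 3 had less than 0.5 times the FPKM of replicate 1, against 71 (0.644%) of the genes that could have been chosen, and replicate 1 was 2.08 to 8.28 times replicate 3. In 4 members replicate 3 had more than 2 times the FPKM of replicate 1, a count for which no such share was computed and from which nothing is read. These 12 were picked after their values were seen. PGSC0003DMG400012619 had 14.7 FPKM in replicate 1 and 1.78 in replicate 3, and D6 had 0.754, 1.67 and 2.35 FPKM at 24 h. PGSC0003DMG400028624 had 72.3 and 13.0 FPKM in the X2 libraries, against 4.79, 9.87 and 13.5 FPKM in D6. PGSC0003DMG400014234 had 17.2 and 2.10 FPKM, against 2.0, 3.16 and 3.48 FPKM in D6. PGSC0003DMG400024707 had 10.8 and 1.80 FPKM, against 1.18, 1.68 and 2.81 FPKM in D6. These 4 genes are the members whose X2 and D6 libraries overlapped at 24 h.

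Of the 12 genes, 11 had at least 10 FPKM in D6 at 0 h, and 10 were lower in D6 at 24 h than at 12 h. In 10 the D6 mean at 4 h was below 0.25 times that of 0 h. Among genes of at least 1 FPKM in D6 at 0 h, this held for 45.6% of the members and 5.57% of those that could have been chosen. For the other counts no such share was computed, and nothing is read from any of them. PGSC0003DMG400011632 had 90.6, 89.4 and 103 FPKM at 0 h in X2, then 11.7, 11.0 and 11.4 at 4 h, 75.8, 95.6 and 65.5 by 12 h, and 22.7 and 4.53 by 24 h. In D6 it had 11.9 FPKM at 0 h, then 0.675, 1.25 and 0.922 at 4 h, 1.68, 1.29 and 2.10 by 12 h, and 0.313, 0.642 and 0.934 by 24 h. PGSC0003DMG400014212 had 281, 272 and 337 FPKM at 0 h in X2, then 83.9, 115 and 121 at 4 h, 331, 341 and 269 by 12 h, and 74.4 and 33.9 by 24 h. Its D6 values were 69.7 FPKM at 0 h, then 26.1, 30.8 and 25.9 at 4 h, 40.5, 34.2 and 47.4 by 12 h, and 6.69, 11.1 and 10.8 by 24 h. It fell from 12 to 24 h by 2.63 log2 units in X2 (SE 0.31, adjusted p = 0.00115), and by 2.11 in D6 (SE 0.21, adjusted p = 0.000615). In both potatoes every library of this gene at 12 h lay above those of 4 and 24 h. The 12 h level was near that of 0 h in X2 and below the 0 h library in D6.

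**Figure D5:**
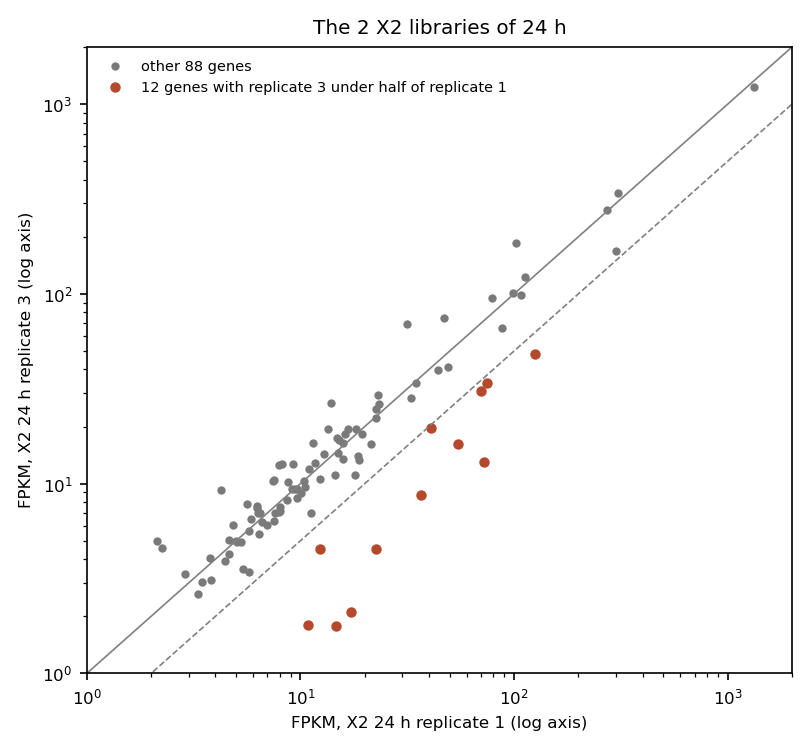
FPKM of the 100 genes in the 2 X2 libraries of 24 h on log axes, replicate 1 across and replicate 3 up. The solid line marks equal values and the dashed line 0.5 times replicate 1, with 12 genes in red below it and the other 88 in grey.

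Genes that the study predicted from its own reads were frequent among the members. They made up 32 of the 100 members, 10 of the first 20, and 13.4% (1473) of the genes that could have been chosen. Which libraries entered the prediction is not given in the sources used here, and its part in the differences was not tested. Positions are given for predicted genes only, and these lay on 11 chromosomes or unplaced parts, with at most 6 on one.

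Among the predicted members, 4 pairs lay within 100 kb of each other. Novel01397 (chromosome 12, 59328941 to 59345582) and Novel01399 (59344551 to 59365153) share 1032 bases on the minus strand. Novel01399 had 47.0, 49.9 and 66.0 FPKM at 12 h and 98.5 and 101.1 FPKM at 24 h in X2, against 0.432, 0.436 and 0.129 FPKM at 12 h and 1.14, 0.451 and 0.621 FPKM at 24 h in D6. Like Novel01397 it was higher in D6 at 0 h and higher in X2 from 4 h on. Novel00387 (chromosome 1, 82734852 to 82736700) lies inside Novel00386 (82724016 to 82739246) on the plus strand. The first had 11.1 to 24.3 FPKM and the second 13.3 to 37.5 FPKM across the X2 libraries, against 0.752 to 2.85 and 1.15 to 3.54 FPKM across the D6 libraries. For both overlapping pairs, reads on the shared bases cannot be assigned to 1 gene, and the use of strand in counting is not given in the sources used here.

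The other 2 pairs do not overlap. Novel02335 and Novel02336 lie 638 bases apart on the minus strand of chromosome 4, at 54790906 to 54792065 and 54792704 to 54806083. Novel02335 had 4.76 to 9.60 FPKM across the X2 libraries, against 0.236 to 1.46 FPKM across the D6 libraries. Novel02336 had 9.92 to 20.6 FPKM in X2, against 0.107 to 0.754 FPKM in D6. Novel03641 (60022789 to 60023628, minus strand) and Novel03522 (60055122 to 60055829, plus strand) lie 31493 bases apart on chromosome 9. Novel03641 had 3.09 to 11.7 FPKM in X2, against 0 to 0.274 FPKM in D6, and Novel03522 had 4.54 to 27.9 FPKM in X2, against 0 to 0.450 FPKM in D6. In X2 both were lowest at 24 h.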

How the data were processed

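RNA of X2 and D6 tubers was sequenced by the authors, whose clean reads were aligned to the potato genome SolTub_3.0 (HISAT) and counted on genes (featureCounts). The authors scaled these counts by gene length and library into the deposited FPKM. Columns were assigned by name. The name of X2 replicate 2 at 4 h heads 2 columns, and the first was used, as in the rule, so that 1 further column of per-sample values stayed unused. Library totals and reads were recovered from the FPKM values, for the 29390 genes found in 3 or more libraries, and a gene's length was taken as the smallest that puts its values on whole reads. Against a gene with no read, folds were computed from the FPKM of 3 reads in each D6 library, which covers counting error only.

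Tests used limma 3.58.1 in R 4.3.3, across all genes that averaged 0.5 FPKM or more in the libraries compared, on log2(FPKM + 0.1) with a mean-variance trend. A call needed |log2FC| ≥ 1 and unadjusted p ≤ 0.01, which are the thresholds of the study. Adjusted p-values are Benjamini-Hochberg over all genes tested. Between 4, 12 and 24 h they belong to genes chosen by values of those hours and are no independent evidence. X2 and D6 at 0 h were compared in 1 fit over the 8 groups, and hours within a potato in fits of their own. Fits were also run on simulated reads with the same spread setting for all genes. This does not cover members at 0 in D6 or with unlike replicates, and nothing is read from it. Nothing in the labels says how replicates were grown, so p-values measure the spread between these libraries. Replicate numbers stand only in the column names. Same-numbered libraries deviated together in D6 at 12 and 24 h (correlations of 0.229, 0.282 and 0.122 across genes), so there the block is given beside the result. Figures used matplotlib 3.10.9 and other steps Python 3.11.15, numpy 2.4.6 and pandas 2.3.3.

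The members and lists were chosen with earlier results of these data known. Named genes are the 12 first ranks, ranks 99 to 102, the 3 lowest and 3 highest differences at 0 h, the 3 highest X2 means, the 3 largest changes each way between hours among called members without overlap of libraries, and members within 100 kb of another. Genes with a term or description in the study's tables, and the members with unlike libraries at 24 h, were added after their values were seen.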

Additional observations from a re-analysis of the deposited data

How the results depend on the processing

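Refitted were the 0 h differences of the 12 first ranks and of the 3 lowest and 3 highest, and the 3 largest changes each way between hours. Their direction held under all alternatives, and other named changes were not refitted. Of the repeated counts, 288 lay within 1.5 times the value reported and 17 did not. With size factors 19 members were higher at 4 h against 0 h in X2 and 23 at 12 h, 41 were lower at 12 h, 13 rose and 28 fell at each hour, and 1 was lower in X2 than D6 at 0 h. That last count was also 1 in a fit of the 0 h libraries alone. With a pseudocount of 1, in D6 3 members fell from 4 to 12 h, and 3 rose and 2 fell from 12 to 24 h. A minimum X2 mean FPKM of 1 kept 36 of the 100 members and one of 10 kept 58. Other settings of the rule kept 92 to 99, and leaving out 1 library 91 to 99.

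Leaving out each library in turn, 70 to 75 members were higher and 2 to 3 lower in X2 than D6 at 0 h, 5 to 8 rose and 5 to 17 fell in X2 from 12 to 24 h, and 3 to 7 rose and 4 to 9 fell in D6 from 12 to 24 h. In X2 20 to 26 rose and 9 to 13 fell at each hour against 0 h. The replicate block changed the count of D6 genes that fell from 12 to 24 h to 11. Against 0 h in X2 it gave 31 rising and 28 falling at 4 h, 36 rising and 26 falling at 12 h, and 34 rising and 35 falling at 24 h. Both pairs of X2 at 12 and 24 h deviated together (correlations of 0.131 and 0.203 across genes), and the block gave 8 rising and 11 falling there. In the other comparisons same-numbered libraries did not all deviate together. Fits of recovered reads by limma-voom and an X2 mean over libraries were chosen after seeing the data, like the counts over all 3 hours, and both stayed within 1.5 times. In 21 repeats the log2FC of a named gene lost its call and in 9 it gained one, and the cause was not tested. D6 has 1 library at 0 h and X2 has 2 at 24 h, which limits both comparisons.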
